A study of Mus musculus with 15 samples.

Results

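Cytosolic ribosomal protein genes were followed in mouse embryonic stem cells before and after knockdown of Smarcb1. The genes were taken by symbol: Rpl or Rps with a number and at most the endings a, x, l or l1, together with Rplp0, Rplp1, Rplp2 and Rpsa, leaving out symbols marked as pseudogenes with -ps. The rule gave 87 of the 55228 genes listed, of which 46 encode proteins of the large (60S) subunit, 30 encode proteins of the small (40S) subunit and 11 carry an ending l or l1 that names a paralog. Rpl36al, whose symbol has an additional letter, was counted among the paralogs. The rule does not take genes with other symbols such as Fau and Rack1, which also encode ribosomal proteins, and 309 symbols marked -ps were left aside. GENCODE annotates 83 of the 87 genes as protein-coding and 4 paralog symbols (Rps12l1, Rpl32l, Rpl6l and Rps4l) as pseudogenes.

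The cells were the line 81K1, made from a picked clone of OG2 embryonic stem cells with a cassette in the Rosa26 locus from which doxycycline drives an shRNA. Its target is Smarcb1, which belongs to the core of the BAF chromatin remodelling complexes. RNA was sequenced in 5 groups of 3 libraries. Untreated cells were sampled at 48 h and at 240 h (ctrl), and cells given doxycycline daily at 1 µg per ml were sampled at 48 h, 72 h and 240 h (kd). All groups carried the shRNA cassette and grew on gelatine in medium with LIF, and the 72 h kd cells have no untreated group of their own time among these libraries. The labels do not say whether replicates were separate cultures, so p-values measure the spread between these libraries, which may be technical.

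A cytosolic ribosome is built from ribosomal RNA and core ribosomal proteins that are each present in about the same number of copies, so cells make these proteins in matched amounts. Their genes are short, use strong promoters without much tissue specificity, and their mRNAs start with a pyrimidine tract (the TOP motif) through which the mTOR pathway sets translation. A few genes have paralogs that replace the parent protein in particular cells, and those of Rpl10 and Rpl39 (Rpl10l and Rpl39l) are best known from male germ cells. Ribosomal protein mRNAs are among the most abundant in embryonic stem cells, and one of them, Rpl3, was the reference transcript of the RT-qPCR assays in this study.

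Values are FPKM, reads scaled to gene length and library total, where the length is the whole gene span from the first to the last base including introns. Fold changes and adjusted p-values are from limma on log2(FPKM + 0.1) and are log2 differences. A gene passed the test at an adjusted p-value under 0.05, and was called where its log2 fold change was also beyond 0.58 in size. Of the 87 genes, 83 reached the mean of 0.5 FPKM needed for testing in each comparison: all 46 genes of the 60S subunit, all 30 of the 40S subunit and 7 paralogs. Rpl3l, Rpl6l, Rpl32l and Rps12l1 did not. Library totals ranged from 11074998 to 14515300 reads, and each of the 76 genes without a paralog ending had between 1097 and 39432 reads in a library.

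The sequences around transcription starts are shown for genes on which the results below turn. RefSeq starts on GRCm38.p6 were matched for 64 of the 87 genes, and 27025 genes had such a window. The first set shows how CpG pairs, printed in capitals, are spread in the 120 bases before and 20 bases after the start of Rpl10 and Rpl39 and of the paralogs Rpl10l and Rpl39l, which moved apart from them.
Rpl10 (chrX:74270696-74270835, plus strand): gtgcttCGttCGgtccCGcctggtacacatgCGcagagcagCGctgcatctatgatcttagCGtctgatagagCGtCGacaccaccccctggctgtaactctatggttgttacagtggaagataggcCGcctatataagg
Rpl10l (chr12:66284382-66284521, minus strand): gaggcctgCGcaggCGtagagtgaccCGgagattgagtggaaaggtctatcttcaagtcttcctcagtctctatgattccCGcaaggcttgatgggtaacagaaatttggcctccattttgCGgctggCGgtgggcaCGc
Rpl39 (chrX:37085203-37085342, minus strand): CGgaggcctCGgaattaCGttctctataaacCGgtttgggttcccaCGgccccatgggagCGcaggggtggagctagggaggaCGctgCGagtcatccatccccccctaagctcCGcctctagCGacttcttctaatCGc
Rpl39l (chr16:10170108-10170247, plus strand): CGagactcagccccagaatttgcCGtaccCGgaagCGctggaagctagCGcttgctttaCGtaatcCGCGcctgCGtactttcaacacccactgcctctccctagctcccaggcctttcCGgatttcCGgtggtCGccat
These windows held 9 CpG pairs at Rpl10, 7 at Rpl10l, 11 at Rpl39 and 12 at Rpl39l. In the 250 bases before the start, the 64 ribosomal protein genes had a median of 16.5 CpG pairs and all 27025 genes a median of 6.

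The second set shows the pyrimidine-rich start itself in 3 genes, with 25 bases on either side of the annotated start and the letters CTTTC in capitals. Only genes without a paralog ending and with CTTTC in this window were considered. The 3 with the largest log2 fold change at 72 h among them were taken, so the set does not link these letters to the rise.
Rps10 (chr17:27635220-27635269, minus strand): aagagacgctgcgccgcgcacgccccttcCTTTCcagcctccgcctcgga
Rpl28 (chr7:4792940-4792989, plus strand): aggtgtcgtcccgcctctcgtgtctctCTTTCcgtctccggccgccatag
Rplp2 (chr7:141447626-141447675, plus strand): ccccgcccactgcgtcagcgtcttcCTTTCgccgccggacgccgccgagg
CTTTC was found on the gene's strand in this window in 18 of the 64 genes (28.1%) and in 6.60% of all genes. The longer form CTCTTTC, which contains CTTTC, was found in 9.38% of the ribosomal protein genes and 0.659% of all genes. CCGGAAG, the core bound by ETS-family factors such as GABPA, lay on either strand within 250 bases before to 50 after the start in 37.5% of them and 9.12% of all genes. AAGATGGC, a core of the YY1 motif, was found in 7.81% of the ribosomal protein genes and 2.88% of all genes. TATAAA was found in 10.9% of them and 14.2% of all genes. These matches describe the letters in the windows and are not binding sites.

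The ribosomal protein genes together took 4.05% to 5.52% of the reads of a library. Their share was 4.84% ± 0.202 in the 48 h controls, 4.74% ± 0.287 in the 48 h knockdown, 5.42% ± 0.0917 in the 72 h knockdown, 4.35% ± 0.282 in the 240 h controls and 4.16% ± 0.103 in the 240 h knockdown (SD, n = 3 each). The 3 libraries of 72 h kd had the highest shares of the 15, and 240 h kd the lowest mean. The library 48 h kd replicate 2 stood apart, with the lowest share of its group (4.41%) and 2.53% mitochondrial reads against 0.507% to 1.95% in the others, and results that rest on it are given without it where they move. The markers of the labelled cell type were present in every library, with Pou5f1 at no less than 238 FPKM and Sox2 at no less than 248 FPKM.

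**Figure D1:**
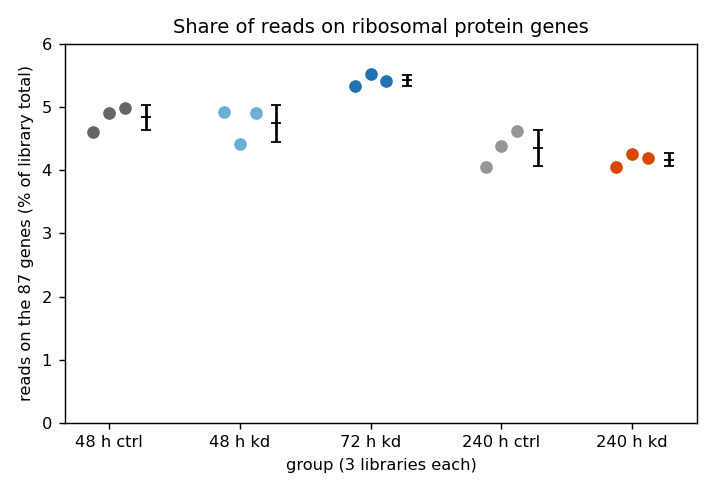
Reads on the 87 ribosomal protein genes as a percentage of the library total (vertical axis), by group (horizontal axis); each point is a library and the bar beside it gives the mean and SD of 3. The 72 h kd libraries are the highest of the 15, with a mean of 5.42%, and the 240 h kd libraries have the lowest mean, 4.16%.

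Levels per exonic length differed widely among the genes. Scaled to exonic length in kb and to library total (the same scale as FPKM, without introns) and averaged over the 15 libraries, Rplp1, an acidic protein of the lateral stalk that recruits elongation factors, was highest at 2417. Rpl4, which lines the exit tunnel, had 1321, Rpl8, near the peptidyl transferase centre, had 1223, and Rps4x, the X-linked small-subunit gene, had 1210. The lowest levels belonged to paralogs, with 0.0418 for Rps12l1, 0.0908 for Rpl6l, 0.292 for Rpl32l and 0.536 for Rpl3l, a muscle paralog of Rpl3. Rpl39l had 11.1 and Rpl10l 25.4 on the same scale. Some of these levels can hold reads of other genes, since genes on opposite strands of one stretch could have like counts. Rpl35 and Wdr38, which overlaps its whole span on the other strand, each had a median of 2196 reads. Of the 87 genes, 50 overlap another listed gene, and 12 overlap a gene other than a snoRNA that had reads amounting to 50% or more of theirs. In addition, 29 host 57 nested snoRNA genes, whose reads were 0.0825% of the host's in the median and 0.612% at most. A median of 18.3% of the 75-base windows of their transcripts also occurred in transcripts of other genes, and over 50% did for 7 genes, so reads could be split with near-identical copies. This share was 0.316% for Rpl10l and 0% for Rpl39l.

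At 48 h of knockdown the ribosomal protein genes stayed close to control. Of the 83 tested, 1 was higher and none lower at an adjusted p under 0.05, against 8.03% of all genes tested that were higher and 8.12% that were lower. The median log2 fold change was -0.02, beside 0.01 for all 11420 genes tested. No gene was called with the fold threshold by limma, against 3.99% of all genes, while 3 had an unadjusted p under 0.05, against 31.9% of all genes, and limma voom on the recovered reads called 1, against 9.29%. The gene that rose was Rpl30, a large-subunit protein. It measured 71.0, 71.2 and 72.4 FPKM in the 48 h ctrl libraries and 86.8, 79.7 and 85.6 FPKM in the 48 h knockdown. The groups did not overlap, and the control values were close together (log2 fold change 0.23, SE 0.05, adjusted p = 0.0291). The count fell to 0 without any single one of the 3 control libraries or of 48 h kd replicates 1 and 3, and was 2 without 48 h kd replicate 2. Leaving out that last library turned the median log2 fold change to 0.02 and gave 1 call.

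At 72 h the ribosomal protein genes were higher as a group than in the 48 h controls. At any fold, 52 of the 83 passed the test as higher and none as lower, against 28.9% of all genes tested that were higher and 26.0% that were lower. The higher genes were 28 of the 46 large-subunit genes, 21 of the 30 small-subunit genes and 3 of the 7 paralogs tested. The median log2 fold change was 0.18 over the 83 genes, 0.15 over the large subunit and 0.23 over the small subunit, beside 0.01 for all 11440 genes tested. The changes were small: only Rpl39l was called with the fold threshold, against 13.5% of all genes. In 61 of the 83 genes every 72 h kd library lay above every 48 h ctrl library, against 33.6% of all genes.

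Several genes of the small subunit rose by more than most. Rps15, which sits in the head of that subunit, measured 365, 396 and 409.8 FPKM in the 48 h controls, 396, 342 and 389.9 in the 48 h knockdown and 543, 543 and 544 in the 72 h knockdown. The 72 h values were nearly identical and above all the others (log2 fold change 0.48, SE 0.05, adjusted p = 0.000595). Rps10, another small-subunit protein of the head, which is ubiquitinated at stalled ribosomes, measured 37.1, 39.6 and 41.8 FPKM in the 48 h controls and 55.0, 56.8 and 53.3 in the 72 h knockdown. These groups did not overlap (log2 fold change 0.48, SE 0.05, adjusted p = 0.000855), but the span of Rps10 overlaps Gm49804, whose median of 3273 reads exceeded the 2956 of Rps10 itself. Rps19 and Rps16 of the small subunit followed with log2 fold changes of 0.34 (adjusted p = 0.00154) and 0.33 (adjusted p = 0.00797). Rpsa, a small-subunit protein also described as a laminin receptor, rose from 246 ± 15.2 to 293 ± 2.98 FPKM (SD, n = 3 each; log2 fold change 0.25, SE 0.05, adjusted p = 0.00703).

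The stalk genes did not move alike at 72 h. Rplp2 measured 142, 148 and 165 FPKM in the 48 h controls and 180.3, 189.8 and 184 in the 72 h knockdown, with no overlap (log2 fold change 0.29, SE 0.06, adjusted p = 0.0110). Rplp1 measured 926, 1028 and 1075 FPKM and 1142, 1123 and 1109 FPKM, again with no overlap, but did not pass the test (log2 fold change 0.16, SE 0.06, adjusted p = 0.0657). Rplp0, the base of the stalk, measured 276, 312 and 325 FPKM in the 48 h controls and 274, 292 and 292 in the 72 h knockdown, with overlap (log2 fold change -0.09, SE 0.07, adjusted p = 0.318). The lowest log2 fold changes were those of Rpl41, the smallest of the proteins (-0.10, adjusted p = 0.155), Rpl31, near the tunnel exit (-0.09, adjusted p = 0.116), and Rplp0. None of the lowest 3 passed the test, and the values of Rpl31 and Rplp0 were positive with 240 h ctrl in place of 48 h ctrl.

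**Figure D2:**
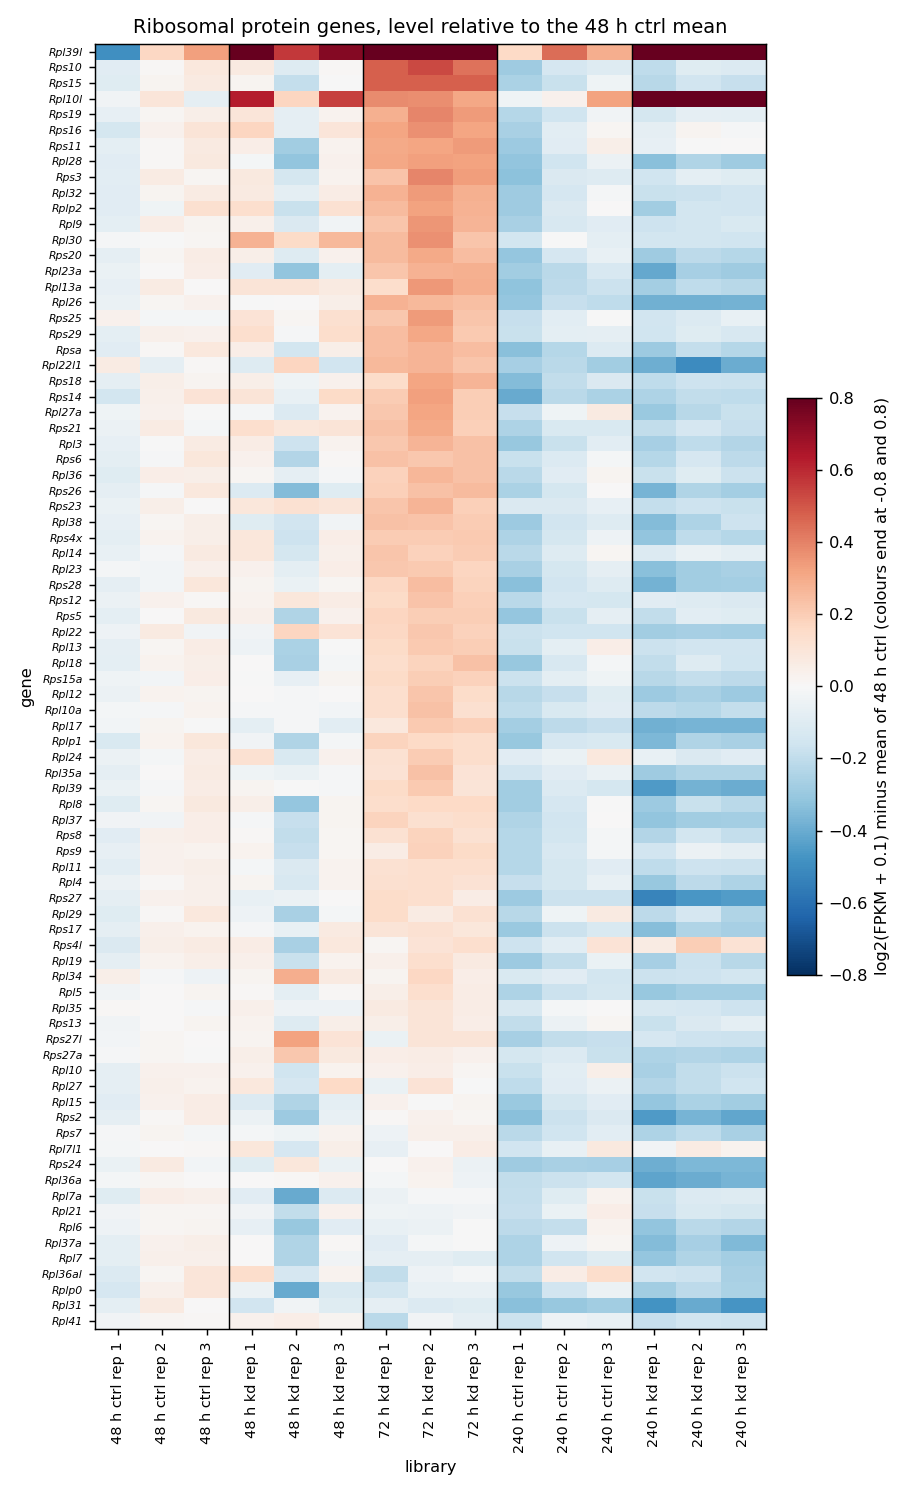
Level of 82 of the 83 tested genes (rows, ordered by log2 fold change at 72 h against 48 h ctrl) in the 15 libraries (columns), as log2(FPKM + 0.1) minus the mean of the 3 libraries of 48 h ctrl; red is higher and blue lower, and colours end at -0.8 and 0.8. Most rows are red in the 72 h kd columns and blue in both 240 h groups, except Rpl10l and Rpl39l, which are darkest red in the 240 h knockdown.

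Setting 72 h kd against 48 h kd, which compares treated cells with treated cells but uses the same 72 h libraries, gave a median log2 fold change of 0.18 for the ribosomal protein genes and 0.02 for all genes. At any fold 34 of the 83 were higher and none lower, against 20.0% of all genes that were higher, and 63 did not overlap in the higher direction, against 29.6%. No gene was called with the fold threshold by limma or by voom, against 7.45% of all genes by limma, and 52 had an unadjusted p under 0.05, against 47.1% of all genes. Among the highest were Rps15 (396, 342 and 389.9 FPKM at 48 h, given above at 72 h; log2 fold change 0.53, SE 0.07, adjusted p = 0.00382) and Rps10 (0.49, adjusted p = 0.00322). The count rested on single libraries: it was 51 when 48 h kd replicate 2 was left out, 19 when 48 h kd replicate 3 was, and 16, 10 and 9 when 72 h kd replicates 1, 2 and 3 were. The median without 48 h kd replicate 2 was 0.14. Centred on the median, 17 of the 83 were higher, near the 17.1% of all genes. With the replicate number as a block 8 were, below the 14.3% of all genes. Against 240 h ctrl instead of 48 h ctrl, the 72 h median was 0.32, with 67 genes higher and 4 called, against 30.2% and 16.6% of all genes in that fit.

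The rise at 72 h did not follow gene span. The ribosomal protein genes span a median of 3232 bases (399 to 31449), and the genes tested at 72 h a median of 13153.5 bases. Across the 83 genes, log2 fold change and span had a Spearman rho of -0.014 at 72 h, and across all 11440 genes 0.011. These are descriptions across genes, which share libraries and are not independent. Among genes of up to 5 kb, the median log2 fold change was 0.17 for 66 ribosomal protein genes and -0.00 for all 3230 genes, and 39 of the 66 were higher against 20.2% of all. With a smooth trend with span removed from each library, the count was 49 higher and 4 lower, against 26.2% and 29.8% of all genes, with a median of 0.13. GC content moved with the change across all genes (rho 0.206) and less so across the ribosomal protein genes (rho 0.140). With trends in GC and span both removed, 54 were higher and 2 lower, against 26.1% and 29.1%, with a median of 0.15. The summed level of the 3 neural markers Tubb3, Nes and Pax6 also differed, with 9.11 to 9.63 FPKM in the 72 h knockdown and 16.2 to 17.0 FPKM in the 48 h controls. The 5 fibroblast markers summed to 0.564 to 0.677 FPKM in the 72 h knockdown and 0.727 to 0.927 FPKM in the 48 h controls. The part of these markers in the result was not tested. In bulk RNA, a change in the share of cells and a change in RNA per cell cannot be told apart.

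**Figure D3:**
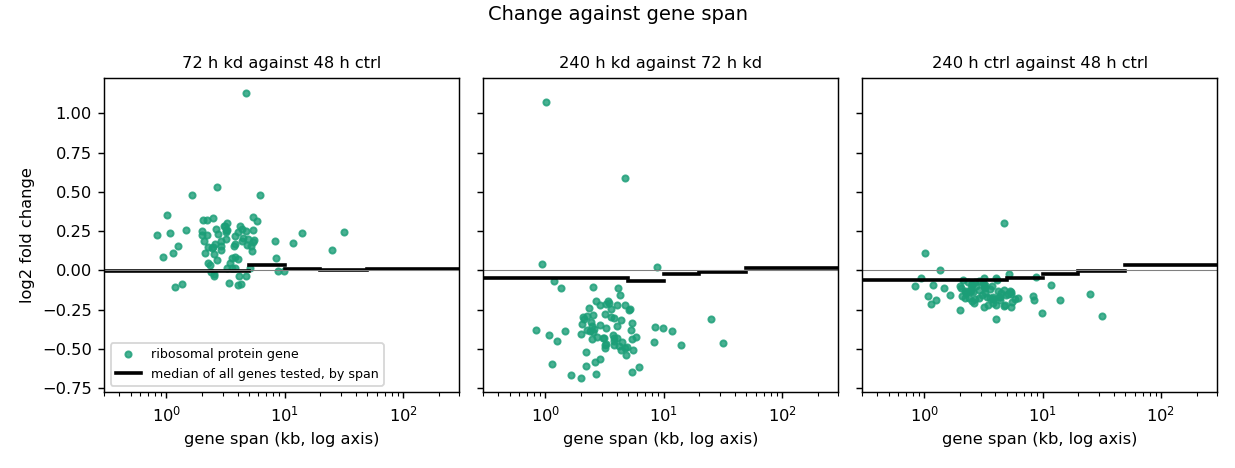
Log2 fold change (vertical axis) against gene span in kb (horizontal log axis) in 3 comparisons; points are ribosomal protein genes and black steps the median of all genes tested in bins of span up to 5, 10, 20 and 50 kb and above. At 72 h the 66 points of up to 5 kb have a median of 0.17, beside -0.00 for all genes of that span.

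By 240 h of knockdown nearly all ribosomal protein genes had come down from the 72 h level. Against 72 h kd, 77 of the 83 were lower at any fold and 2 higher, where 31.8% of all genes tested were lower and 27.7% higher. The lower genes were 45 of 46 in the large subunit, 30 of 30 in the small subunit and 2 of the 7 paralogs. The median log2 fold change was -0.38, beside -0.02 for all 11463 genes. With the fold threshold 8 were called lower and 2 higher, against 15.7% of all genes called in either direction. In 77 genes every 240 h kd library lay below every 72 h kd library, against 36.0% of all genes. The fold calls depend on scaling: as TPM they were 2 lower and 2 higher, and with the span trend removed 4 lower and 2 higher, while 70 and 75 genes were lower at any fold, against 24.5% and 29.3% of all genes. Marker levels moved between the same groups. The summed level of the 3 neural markers was 9.11 to 9.63 FPKM in the 72 h knockdown and 19.0 to 20.2 in the 240 h knockdown, that of 5 fibroblast markers 0.564 to 0.677 and 1.34 to 1.56, and that of 6 embryonic stem cell markers 805 to 842 and 666 to 671. Among the fibroblast markers, Postn did not exceed 0.00691 FPKM and Lum 0.0103 FPKM in the 15 libraries. Only 1 of the 5 reached the mean needed for testing between these groups, and it was called higher (log2 fold change 1.38). The part of these markers in the fall was not tested.

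Rpl22l1, the paralog of Rpl22, fell most. It measured 51.6, 51.9 and 50.3 FPKM in the 72 h knockdown and 32.8, 30.3 and 32.6 in the 240 h knockdown. The groups lay far apart (log2 fold change -0.68, SE 0.04, adjusted p = 9.24e-05), and the antisense gene Gm33051 over part of it had reads equal to 46.3% of its own. Rps15, described above at 72 h, measured 335, 350.0 and 344 FPKM in the 240 h knockdown, below its 72 h value in every library (-0.66, adjusted p = 3.30e-05). Rpl26, a large-subunit protein near the tunnel exit that can also bind p53 mRNA, measured 54.6, 53.8 and 53.1 FPKM at 72 h and 34.5, 34.4 and 34.5 at 240 h. The 240 h values lay close together and below the 72 h values (log2 fold change -0.64, SE 0.02, adjusted p = 3.05e-05). Rps10, Rpl28, Rps27 and Rpl23a also fell past the threshold, with log2 fold changes of -0.62, -0.61, -0.59 and -0.58 (adjusted p = 0.000137, 5.71e-05, 0.000104 and 0.000233). Rpl23a shares 78.1% of its 75-base windows with other transcripts, and overlaps Tlcd1 on the opposite strand, which had a median of 3936 reads against 3820. Rpl41 was the large-subunit gene that did not pass (266, 303 and 293 FPKM against 271, 276 and 274; log2 fold change -0.07, SE 0.05, adjusted p = 0.295).

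**Figure D4:**
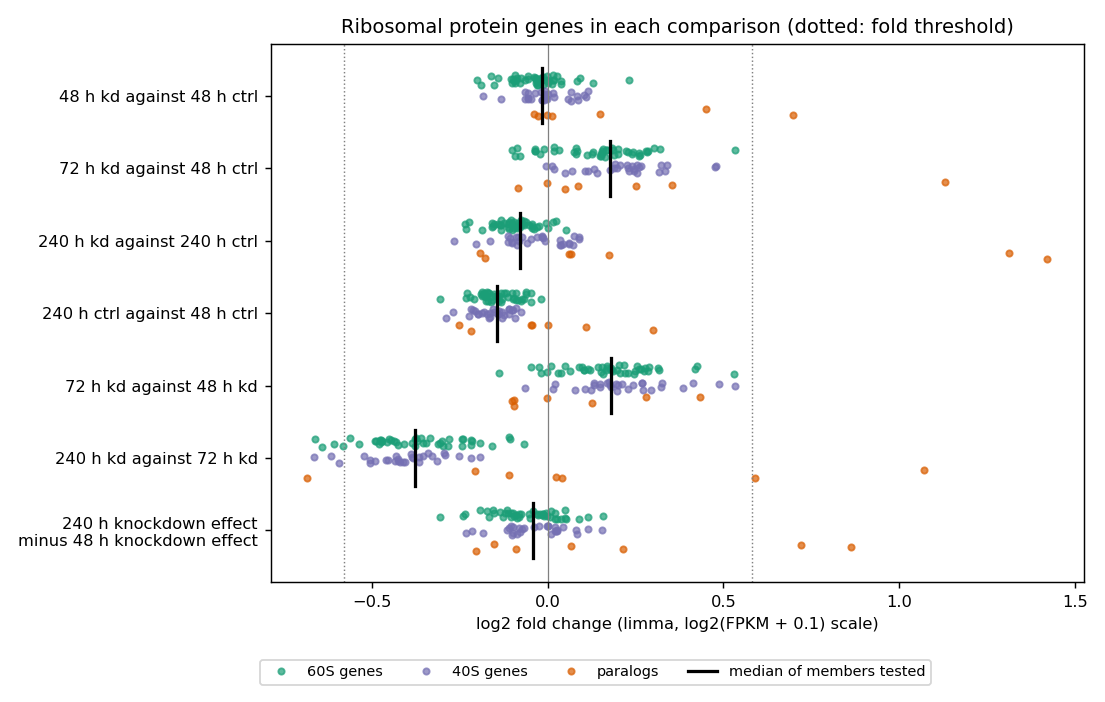
Log2 fold change (horizontal axis) of the 83 tested genes in the 7 comparisons (rows); each point is a gene, coloured by subunit or paralog, with vertical spread only to separate points, black bars are medians and dotted lines mark 0.58 and -0.58. The cloud lies near 0 at 48 h, to the right at 72 h (median 0.18) and to the left for 240 h kd against 72 h kd (median -0.38), and Rpl10l and Rpl39l lie apart on the right.

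Time in culture without knockdown also went with lower values. Set against 48 h ctrl, in 240 h ctrl all 76 genes without a paralog ending had a negative log2 fold change, and the median over the 83 tested was -0.14 beside -0.02 for all 11359 genes. Only 4 passed at any fold, all lower, against 1.33% of all genes that were lower, and 39 did not overlap in the lower direction, against 18.3%. No gene was called with the fold threshold by limma or voom, against 0.475% of all genes by limma, while 35 had an unadjusted p under 0.05, against 26.5% of all genes, and voom passed 19 as lower at any fold, against 4.39%. The lowest was Rpl31, which measured 83.2, 92.3 and 88.0 FPKM in the 48 h controls and 69.5, 71.0 and 72.2 in the 240 h controls, with no overlap (log2 fold change -0.31, SE 0.05, adjusted p = 0.0442). Rps24 and the paralog Rps27l also passed, with log2 fold changes of -0.27 (adjusted p = 0.0448) and -0.22 (adjusted p = 0.0460). The count was 0 without any one of the 6 libraries. The fold change moved with gene span in this comparison, with a Spearman rho of 0.152 across all genes and -0.268 across the 83. Among genes of up to 5 kb the median was -0.14 for 66 ribosomal protein genes and -0.06 for all 3240 genes. With the span trend removed the median was -0.11 beside -0.02 for all genes, and 2 of the 83 were lower, against 1.04% of all genes. Rescaling to TPM moved the median of all genes from -0.02 to 0.09 and that of the ribosomal protein genes to -0.03, with 56 of 83 negative and none past the adjusted p.

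Measured against the control of its own time, the 240 h knockdown left most ribosomal protein genes near control. Of the 83, 10 were lower and 2 higher at any fold, against 16.4% and 17.3% of all genes tested. The median log2 fold change was -0.08, beside -0.00 for all 11401 genes, and 21 genes did not overlap in the lower direction, against 24.9% of all genes. With the fold threshold 2 were called, both paralogs and both higher, against 8.91% of all genes. The count at any fold was 22 without 240 h ctrl replicate 1, 4 without 240 h ctrl replicate 2, 5 without 240 h kd replicate 1 or 2, and 4 without 240 h kd replicate 3. Centred on the median, 5 were lower and 2 higher, against 16.1% and 16.7% of all genes, and voom gave 25 lower and 3 higher, against 23.2% and 22.3%. Marker levels differed between these groups too. The 6 embryonic stem cell markers summed to 741 to 774 FPKM in the 240 h controls and 666 to 671 in the 240 h knockdown. The 3 neural markers summed to 15.2 to 17.5 and 19.0 to 20.2 FPKM. The part of these markers in the result was not tested.

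Rps27, Rpl39 and Rpl36a had the lowest log2 fold changes against 240 h ctrl among the genes that passed. Rps27, a zinc-finger protein of the small subunit, measured 219, 238 and 238 FPKM in the 240 h controls and 186, 194 and 197 in the 240 h knockdown (log2 fold change -0.27, SE 0.05, adjusted p = 0.0102). Rpl39, a very small protein in the wall of the exit tunnel, measured 55.3, 62.4 and 61.0 FPKM and 49.1, 51.7 and 50.9 FPKM (log2 fold change -0.23, SE 0.06, adjusted p = 0.0236). Rpl36a, at the exit site for tRNA, measured 211, 215 and 218 FPKM and 181, 184 and 187 FPKM (log2 fold change -0.22, SE 0.03, adjusted p = 0.00499). In each of these genes all 3 knockdown libraries lay below all 3 controls. The same held for Rpl37a, a large-subunit protein with 116, 134 and 139.6 FPKM in the controls and 109, 115 and 108 in the knockdown, which did not pass (log2 fold change -0.23, SE 0.08, adjusted p = 0.0650). Rpl39 no longer passed when any library but 240 h ctrl replicate 1 was left out.

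The paralogs Rpl10l and Rpl39l went the other way. Rpl10l (ENSMUSG00000060499.7, chr12:66283379-66284401, minus strand of GRCm38), an intronless copy of the X-linked Rpl10, whose protein completes the large subunit late in its assembly, measured 16.7, 18.3 and 16.2 FPKM in the 48 h controls, 26.4, 19.3 and 24.98 in the 48 h knockdown and 22.1, 22.1 and 21.2 in the 72 h knockdown. It measured 16.7, 17.5 and 21.4 FPKM in the 240 h controls and 43.9, 48.2 and 45.7 in the 240 h knockdown. The 240 h kd libraries, with 592 to 715 reads, stood clear of the other 12 libraries. Rpl10l passed the test at 72 h (log2 fold change 0.35, SE 0.05, adjusted p = 0.00235) and was called at 240 h (log2 fold change 1.31, SE 0.10, adjusted p = 0.000517). At 48 h it did not pass (log2 fold change 0.45, SE 0.13, adjusted p = 0.0706), and was called there without 48 h kd replicate 2. Its knockdown effect was larger at 240 h than at 48 h by 0.86 on the log2 scale (SE 0.17, adjusted p = 0.00892 for the interaction), and no other of the 83 genes was called there, where 5.82% of all genes were.

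Rpl39l (ENSMUSG00000039209.12, chr16:10170226-10174911, plus strand), the paralog of the X-linked Rpl39, was higher at each later time of the knockdown. It measured 0.685, 1.14 and 1.28 FPKM in the 48 h controls, 1.82, 1.53 and 1.73 in the 48 h knockdown and 2.43, 2.30 and 2.22 in the 72 h knockdown. It measured 1.13, 1.40 and 1.25 FPKM in the 240 h controls and 3.89, 3.69 and 3.07 in the 240 h knockdown. The 48 h, 72 h and 240 h kd libraries did not overlap one another, and each set lay above all 6 control libraries. It passed from 48 h kd to 72 h kd (log2 fold change 0.43, SE 0.07, adjusted p = 0.00857) and from 72 h kd to 240 h kd (log2 fold change 0.59, SE 0.09, adjusted p = 0.00294). Few reads stand behind the low values, 44 to 68 in the 48 h controls and 196 to 251 in the 240 h knockdown. Rpl39l was called at 72 h (log2 fold change 1.13, SE 0.21, adjusted p = 0.00674) and at 240 h (log2 fold change 1.42, SE 0.11, adjusted p = 0.000574), and did not pass at 48 h (log2 fold change 0.70, SE 0.22, adjusted p = 0.0895). Its interaction of 0.72 did not pass (adjusted p = 0.101), but did without 48 h ctrl replicate 1.

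The parents were not higher in the 240 h knockdown. At 72 h Rpl39 was higher than in the 48 h controls (log2 fold change 0.15, SE 0.04, adjusted p = 0.0274), and Rpl10 did not pass (0.03, adjusted p = 0.513). Rpl10 measured 160.4, 171 and 188 FPKM in the 240 h controls and 152, 158 and 161 in the 240 h knockdown (log2 fold change -0.14, SE 0.07, adjusted p = 0.167), and Rpl39 is given above. Per 100 reads of Rpl10 there were 4.14 ± 0.266 reads of Rpl10l in the 48 h controls, 5.79 ± 0.538 in the 48 h knockdown, 5.17 ± 0.0807 in the 72 h knockdown, 4.69 ± 0.280 in the 240 h controls and 12.9 ± 0.469 in the 240 h knockdown (SD, n = 3 each). Per 100 reads of Rpl39 there were 2.49 ± 0.675 reads of Rpl39l in the 48 h controls, 4.09 ± 0.333 in the 48 h knockdown, 5.04 ± 0.245 in the 72 h knockdown, 3.44 ± 0.190 in the 240 h controls and 11.4 ± 1.54 in the 240 h knockdown. Both paralogs thus remained well below their parents in reads. Neither span overlaps another listed gene. As the windows printed above show, both have CpG pairs near the start, as their parents have.

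**Figure D5:**
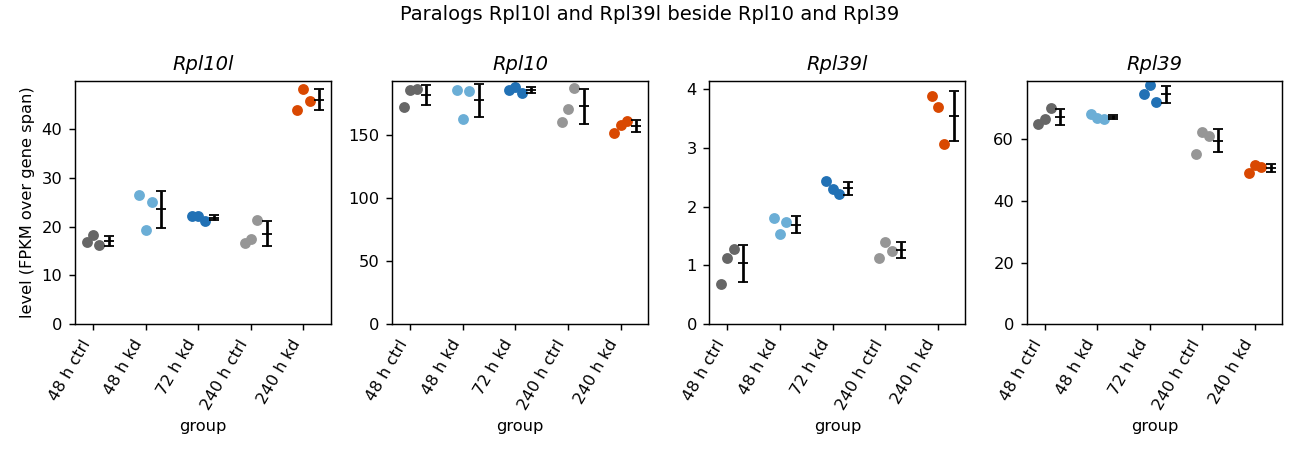
Level in FPKM over the gene span (vertical axes, starting at 0 and differing between panels) of Rpl10l, Rpl10, Rpl39l and Rpl39 by group; each point is a library and the bar beside it gives the mean and SD of 3. Rpl10l and Rpl39l are highest in the 240 h knockdown, at 45.9 ± 2.14 and 3.55 ± 0.425 FPKM, while Rpl10 and Rpl39 have their lowest means there.

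None of the other paralogs tested was called higher in the 240 h knockdown. Rpl7l1, whose product acts in ribosome assembly, measured 31.6 ± 2.53 FPKM in the 240 h controls and 33.0 ± 1.14 in the 240 h knockdown (log2 fold change 0.07, SE 0.07, adjusted p = 0.480). Rps27l, known as a p53 target, measured 50.4 ± 1.47 and 52.6 ± 0.731 FPKM (log2 fold change 0.06, SE 0.04, adjusted p = 0.239). Rpl36al measured 49.3 ± 5.78 and 42.9 ± 1.64 FPKM, and Rps4l 169 ± 16.8 and 191 ± 8.54 FPKM, neither past the test (adjusted p = 0.164 and 0.153). Their spans overlap Gm49383 and Tmtc1, whose median reads were 206% and 104% of their own. Rpl22l1 was lower in the 240 h knockdown (35.8, 37.0 and 35.5 FPKM against 32.8, 30.3 and 32.6; log2 fold change -0.18, SE 0.04, adjusted p = 0.0274), which no longer passed without any one of 240 h ctrl replicates 1 and 2 and 240 h kd replicates 2 and 3. Its parent Rpl22 was also lower (-0.11, adjusted p = 0.0289). Set against the parent, some of these paralogs also had higher values. Per 100 reads of Rps27, which fell, there were 66.1 ± 1.28 reads of Rps27l in the 240 h controls and 83.1 ± 3.56 in the 240 h knockdown (SD, n = 3 each). Per 100 reads of Rpl7 there were 26.0 ± 0.792 and 29.3 ± 0.290 reads of Rpl7l1, and per 100 reads of Rps4x 8.73 ± 0.296 and 10.6 ± 0.182 reads of Rps4l. These 3 ratios did not overlap between the groups and were not tested, while those of Rpl22l1 and Rpl36al overlapped. Rpl3l had between 0.0717 and 0.160 FPKM in the 15 libraries and was not tested.

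Rpl3 was itself examined because RT-qPCR levels in the study were set against it. It measured 84.6, 88.2 and 92.5 FPKM in the 48 h controls, 91.9, 78.9 and 90.1 in the 48 h knockdown and 103, 107 and 104 in the 72 h knockdown. It measured 71.7, 78.0 and 83.3 FPKM in the 240 h controls and 73.6, 76.7 and 75.3 in the 240 h knockdown. The 72 h libraries were the highest of the 15, and all 6 libraries of 240 h lay below the 3 of 48 h ctrl. The log2 fold change was -0.03 at 48 h (95% interval -0.21 to 0.16) and 0.24 at 72 h (SE 0.04, adjusted p = 0.00422). The 240 h value was -0.04 (95% interval -0.20 to 0.11). Smarcb1 in the knockdown was 18.0%, 15.7% and 19.3% of control by FPKM at 48 h, 72 h and 240 h, with 48 h ctrl as the control at 72 h. Set against Rpl3 in each library, it was 18.6%, 13.3% and 19.9%.

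Genes that work with the ribosomal proteins were counted in the same fits. Fau and Rack1, which also encode ribosomal proteins, were higher at 72 h than in the 48 h controls, with log2 fold changes of 0.17 and 0.20 (adjusted p = 0.0223 and 0.0152). Both were lower in the 240 h knockdown than in the 72 h knockdown (-0.24 and -0.40; adjusted p = 0.000651 and 0.000189). A list of 58 ribosome biogenesis genes, which process ribosomal RNA and assemble the subunits in the nucleolus, had medians of the opposite sign. At 72 h against 48 h ctrl 30 were lower and 8 higher at any fold, against 26.0% and 28.9% of all genes, with a median of -0.13 and 17 positive values. In 240 h kd against 72 h kd 43 were higher and 3 lower, against 27.7% and 31.8% of all genes, with a median of 0.30. Against 240 h ctrl the 240 h knockdown had 23 higher and 2 lower, against 17.3% and 16.4% of all genes, with a median of 0.11. At 48 h 6 were higher, against 8.03% of all genes, and none lower, against 8.12%. Under TPM, centring, span and GC corrections and voom, the 72 h count of lower biogenesis genes was between 27 and 37 and the count of higher ones between 6 and 10. The lists were not tested against each other.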

How the data were processed

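RNA-seq libraries from 15 samples in 5 groups were grouped by their labels. The authors aligned single-end reads to mm10 (GRCm38.p6) with STAR 2.7.0c, made gene counts in R 4.0.3 and used DESeq2 1.30.0 on them, as the paper's methods and the submitters' processing notes state. The deposited values are FPKM per gene and library, made by the authors, with coordinates and symbol. The gene annotation used for them is not given in the sources used here. Each FPKM value, multiplied by the gene span and 1 total per library, gave whole reads in 100% of values (tolerance 0.001), so the span was the length used. That check alone does not show which bases or which strand were counted. Totals were 11074998 to 14515300 reads, and reads summed over genes exceeded them by 7.38% to 8.34%. Precision is limited by counting for genes with few reads, and reads carry no molecular identifiers.

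Because the values are FPKM, limma 3.58.1 in R 4.3.3 (lmFit, eBayes with a trend, two-sided) was run on log2(FPKM + 0.1) for those genes whose mean over the compared libraries reached 0.5 FPKM, with Benjamini-Hochberg adjustment over all genes tested. A call needed an adjusted p-value under 0.05 and a log2 fold change beyond 0.58. Each comparison was fitted on its own libraries, the 72 h kd set against 48 h ctrl as in the study, and the interaction over 12 libraries. All 87 genes matched GENCODE M21 for identifiers, type and strand, and coordinates are 1-based. The members and lists, among them that of ribosome biogenesis, were chosen with earlier results of these data known. Genes named are those called, the 3 highest and 3 lowest in a comparison, the paralogs with their parents, the stalk genes, Rpsa, Rpl3, Fau and Rack1, and the extremes of level, and some genes this rule takes are not reported here. Rps19, Rps16, Rps27a and Rps23 were added once values had been seen.

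As alternatives, pseudocounts of 1 and 0.01 were tried, then no FPKM minimum or 2 FPKM, TPM, median centring, removal of a span trend, 1 fit of 15 libraries, no prior trend, a replicate block, each library left out, limma voom on recovered reads (mean of at least 10, with trimmed-mean scaling written out in R), no fold threshold, no Rpl36al, and 240 h ctrl as the 72 h control. Removal of GC and span trends and the count at any fold under each setting were added after seeing the data. The fits were tested on simulated data. Tables and plots used Python 3.11.15, numpy 2.4.6, pandas 2.3.3 and matplotlib 3.10.9.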

Additional observations from a re-analysis of the deposited data

Results flagged for a closer look

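For 7 of the 83 ribosomal protein genes tested, the knockdown effect at 240 h differed from that at 48 h by the interaction term of the limma fit at an adjusted p under 0.05, against 15.6% of all genes tested. The differences below are the 240 h effect minus the 48 h effect on the log2 scale. Rpl10l was the gene with a larger effect at 240 h (0.86). The other 6 had lower effects at 240 h: Rpl30 (-0.31), Rpl36a (-0.24), Rpl39 (-0.24), Rps27 (-0.23), Rps27a, made as a fusion with ubiquitin (-0.21), and Rps23, at the decoding centre (-0.18). Rpl10l, Rpl30 and Rpl36a passed in all 12 fits that left out 1 library, while Rps23 passed in 6 of them, Rps27a in 3, Rpl39 in 2 and Rps27 in 1. As TPM, the count of genes past the adjusted p was 2, Rpl10l and Rps27a.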

How the results depend on the processing

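Counts below are of ribosomal protein genes. At 72 h and in 240 h kd against 72 h kd the count at any fold stayed within 1.5 times its value under each alternative. Of the 52 genes past the test at 72 h, 1 (Rpl35, with GC and span trends removed) changed direction under an alternative, and of the 79 in 240 h kd against 72 h kd none did. Among genes that had not passed, 16 and 2 changed direction. With 240 h ctrl as the 72 h control 10 did, among them Rplp0 and Rpl31 (0.21). With no fold threshold, calls became 1 (48 h), 52 (72 h), 12 (240 h), 4 (240 h ctrl against 48 h ctrl), 34 (72 h kd against 48 h kd), 79 (240 h kd against 72 h kd) and 7 (interaction). Calls at 48 h were 1, higher, in 1 fit of 15 libraries and by voom, and 1, lower, with no FPKM minimum. They were 0 at 72 h with a minimum of 2 FPKM, which leaves out Rpl39l, and 4 with 240 h ctrl as control. They were 2 in 72 h kd against 48 h kd as TPM, against 8.10% of all genes, and 2 for the interaction with a pseudocount of 1. In 240 h kd against 72 h kd they were 4 as TPM, 6 without the span trend and 3 without GC and span trends. The shares of all genes called there were 15.6%, 15.5% and 14.9%.

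At any fold the 48 h count was 0 as TPM or centred, 5 in 1 fit and 3 by voom. As TPM 5.30% of all genes were higher and 7.89% lower, and centred 7.08% and 7.16%. By voom the 3 were higher, against 12.4% of all genes. The 240 h count was 7 centred and 28 by voom. In 240 h ctrl against 48 h ctrl it was 0 with no minimum, as TPM, centred or with no prior trend, 2 without the span trend, 1 without GC and span trends, 23 in 1 fit and 19 by voom. Lower genes made up 0.748% of all genes as TPM, 0.968% centred and 0.845% without GC and span trends. In 72 h kd against 48 h kd it was 10 with no minimum, 17 centred and 53 in 1 fit. Centred, the 17 were 20.5% of the genes, all higher, near the 17.1% of all genes. For the interaction it was 3 with no minimum, 2 as TPM, 4 centred and 4 without the span trend. As TPM, centred and without the span trend, 7.42%, 7.04% and 8.53% of all genes were higher and 5.84%, 7.21% and 7.47% lower. Shares of all genes with no minimum, with no prior trend and in 1 fit are not reported here. The cause of these moves was not tested.

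Leaving out 1 library gave 0 to 1 calls at 48 h, 1 to 1 at 72 h, 2 to 2 at 240 h, 0 to 0 in 240 h ctrl against 48 h ctrl and in 72 h kd against 48 h kd, 7 to 10 in 240 h kd against 72 h kd, and 1 to 2 for the interaction. At any fold the counts were 0 to 2, 41 to 53, 4 to 22, 0 to 0, 9 to 51, 78 to 81 and 3 to 8 in the same order.

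Samples with the same number did not deviate together: 1 of 18 correlations exceeded 0.1 (-0.0993 to 0.119). The numbers were thus not taken as pairs. With the replicate number as a block the count at any fold was 0 at 48 h, 51 at 72 h, 6 at 240 h, 0 in 240 h ctrl against 48 h ctrl, 8 in 72 h kd against 48 h kd, 79 in 240 h kd against 72 h kd and 7 for the interaction. The 51 were higher, against 26.25% of all genes. The 6 were 2 higher and 4 lower, against 13.5% and 12.6%. The 8, all higher, were 9.64% of the 83, below the 14.3% of all genes. At 48 h 2.00% of all genes were higher and 1.95% lower. In 240 h ctrl against 48 h ctrl none of all 11359 genes passed. Depth limits the low paralogs, and Rpl3l, Rpl6l, Rpl32l and Rps12l1 could not be followed.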

Other observations

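Mitochondrial ribosomal protein genes, whose products form the separate ribosome of that organelle were counted in the same fits, and were not tested against the cytosolic ones. Of 78 listed, 75 were tested at 72 h against 48 h ctrl, where 30 were lower and 9 higher at any fold, against 26.0% and 28.9% of all genes, with a median log2 fold change of -0.09. In 240 h kd against 72 h kd 23 were higher and 19 lower, near the 27.7% and 31.8% of all genes, with a median of 0.01. Against 240 h ctrl, 6 of 74 were higher and 4 lower, against 17.3% and 16.4%.

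A list of 14 other genes with TOP mRNAs, such as elongation factors, had 5 higher and 4 lower at 72 h against 48 h ctrl (median -0.03), near the 28.9% and 26.0% of all genes, and 8 lower and 4 higher in 240 h kd against 72 h kd (median -0.14), against 31.8% and 27.7%. Among 11 genes of RNA polymerase I and its factors, which transcribe ribosomal RNA, 4 were lower and 2 higher at 72 h, and 9 were higher and 1 lower in 240 h kd against 72 h kd (medians -0.10 and 0.22), beside the same shares of all genes. The summed level of the 5 fibroblast markers was 1.34 to 1.56 FPKM in the 240 h knockdown, 0.853 to 0.963 in the 240 h controls and 0.523 to 0.927 in the 48 h and 72 h groups, with Postn and Lum at 0 in some libraries. That of the 4 primitive endoderm markers was 0.282 to 0.371 FPKM in the 240 h knockdown, 0.152 to 0.241 in the 240 h controls and 0.101 to 0.193 in the other groups.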
